A study of Caenorhabditis elegans with 24 samples.

Results

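Small RNA that co-precipitated with the Argonaute protein ALG-1 was compared between Caenorhabditis elegans carrying the H751L change in alg-1 and wild-type animals. The comparison was chosen by genotype and library type, and it holds 4 of the 24 libraries of the study, 2 from H751L and 2 from wild type (WT). All 437 mature microRNA (miRNA) names in the deposited count table entered it, of which 269 had enough reads to be tested. ALG-1 is one of the worm Argonautes that hold mature miRNAs and use them to repress messenger RNAs. A miRNA hairpin gives a pair of arms, and an Argonaute usually keeps one of them, the guide, and discards the other, the passenger. The IP libraries hold RNA that came down in the ALG-1 precipitation, while total RNA of the lysate holds strands in every Argonaute. The precipitation also recovered RNA where there was no ALG-1: the 2 null IP libraries held 9889892 and 4667774 miRNA reads. Null levels are therefore given beside the main results, and their part in the H751L levels was not tested.

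Wild type was the N2 strain and H751L animals carried alg-1(zen18, H751L), an allele modelled on a human AGO1 change found in a neurodevelopmental disorder. Further IP libraries used below as values or in the shared fit came from alg-1(zen25, V254I), alg-1(ma443, G199S), alg-1(ma447, F180del) and the null alg-1(tm492), with 2 libraries in each group. All were whole larvae, synchronised and collected 45 h after feeding at 20 °C. The number of independent lines behind each allele is not given in the sources used here, and nothing in the labels says that the numbered replicates were grown separately. A p-value here is therefore set against differences between the 2 libraries of a group, pooled over all groups in the fit. Those differences could be technical. In whole animals, fewer cells that make a miRNA and less of it per cell cannot be told apart.

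The H751L IP libraries held 13835895 and 11735560 miRNA reads and the WT IP libraries 11851546 and 12407061. Levels are given as reads per 1000000 miRNA reads (RPM), and 3 reads, the limit that a count of 0 allows, correspond to 0.217 to 0.256 RPM in these 4 libraries. On log2(RPM + 1) over the 269 miRNAs, the correlation across miRNAs was 0.991 between the H751L libraries, 0.993 between the WT libraries and 0.977 to 0.982 between libraries of the different genotypes. The counts assigned to miRNAs hold no measure of alg-1 itself or of how much protein each precipitation recovered, so all levels are relative within a library. Markers of muscle (miR-1-3p), glia (miR-228-5p), intestine (miR-60-3p) and neurons (miR-124-3p, lsy-6-3p, miR-234-3p and miR-791-3p) had reads in all 4 libraries.

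Between the IP of H751L and that of WT, 6 of 269 miRNAs passed the test (2.23%). The passenger strand miR-51-3p rose, as did miR-85-3p (0.743%), while miR-8200-3p, miR-800-3p, miR-243-3p and miR-8210-5p fell (1.49%). The test was edgeR's quasi-likelihood test over the 12 IP libraries with Benjamini-Hochberg adjustment over all 269 miRNAs and a threshold of 0.05. At an unadjusted p below 0.05 there were 46 miRNAs (17.1%), 21 of them higher in H751L and 25 lower. The median log2 change over the 269 was 0.02, with the middle 50% between -0.86 and 0.60. Scaling by library totals in place of TMM factors moved that median to -0.18, so log2 changes near that size have no fixed direction. The null IP libraries were part of the shared fit. Without them 35 miRNAs passed, 14 higher and 21 lower, the 6 included; this setting was chosen after seeing the data. DESeq2 called 21, also with the 6 among them, and leaving out any 1 of the 4 libraries left 2 or 3 calls. In RPM, the H751L and WT pairs did not overlap for 145 of the 269 miRNAs (53.9%), 40 higher in H751L (14.9%) and 105 lower (39%); on the TMM scale it was 71 higher and 81 lower. Pairs that do not overlap are thus common in these libraries, and each such statement below is to be read against these shares.

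**Figure D1:**
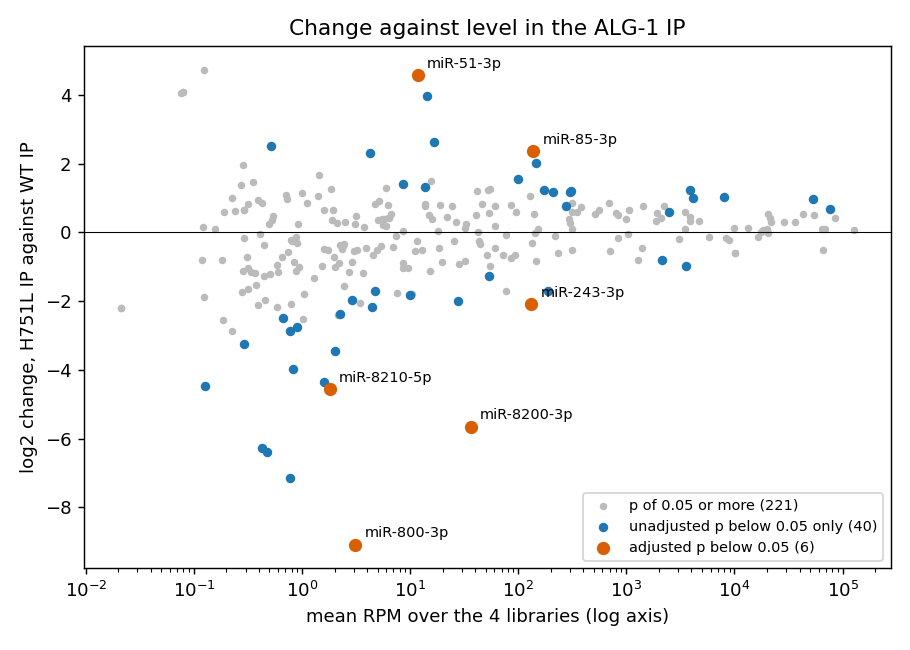
Each point is a tested miRNA with reads in at least 1 of the 4 libraries, with its mean level over them on the x axis (RPM, log scale) and its log2 change, H751L IP against WT IP, on the y axis; orange points passed an adjusted p of 0.05 and blue points only an unadjusted one. Of the named points miR-800-3p (-9.08, fitted from 0 reads in H751L) lies lowest and miR-51-3p (4.57) highest.

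miR-8200-3p had the lowest p-value of all. Its IP level was 1.23 and 1.19 RPM in the H751L libraries and 65.4 and 78 RPM in the WT libraries. The groups did not overlap, and the WT mean was 59.2 times the H751L mean, from 1743 against 31 reads. The log2 change was -5.65 ± 0.75 (SE), with an adjusted p of 0.00359 by edgeR's quasi-likelihood test. Across the other alleles the IP level was 69.1 and 89.2 RPM in V254I, 40.3 and 42.1 RPM in F180del, 0.262 and 0 RPM in G199S, and 0 in both null libraries. H751L thus lay with G199S and the null, and V254I lay near WT. F180del was below WT and above H751L in RPM. Its TMM factors (1.46 and 1.48, against 0.986 and 0.869 in WT) put it further below WT on that scale. The hairpin, annotated on chromosome V, 3057062-3057117, plus strand (WBcel235, Ensembl 115), lies outside protein-coding genes, 14429 bp from mir-1821, which is on the minus strand. miR-1821-3p, the product of that neighbour, was at 12.2 and 7.84 RPM in H751L and 37.5 and 54.3 RPM in WT. The log2 difference of -1.99 ± 0.49 did not pass the test (edgeR adjusted p = 0.0623). The null IP held 90 and 39 reads of miR-1821-3p, against 169 and 92 reads in the larger H751L libraries.

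No read of miR-800-3p was found in either H751L IP library. The WT libraries had 7.0 and 5.48 RPM, 151 reads in all. Set against a floor of 3 reads over the group, miR-800-3p was at least 53.1-fold lower in H751L (edgeR adjusted p = 0.00359). The other alleles of ALG-1 held it at 5.81 and 6.84 RPM (V254I), 5.86 and 5.59 RPM (G199S) and 11.4 and 13.9 RPM (F180del), and the null IP had none. Of the 4 changed forms of ALG-1, only H751L had no read of miR-800-3p in the IP. The other arm of the hairpin, miR-800-5p, was also at 0 in both H751L libraries, against 0.928 and 0.967 RPM in WT. At 23 reads in WT this was at least 8.08-fold lower, with an edgeR adjusted p of 0.0623. The hairpin is annotated on chromosome X, 380919-380991, minus strand.

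miR-243-3p is known for loading into RDE-1, the Argonaute of exogenous RNA interference, more than into ALG-1. It was at 39.1 and 47.5 RPM in the H751L IP and at 256 and 186 RPM in the WT IP. The groups did not overlap, and the log2 change was -2.08 ± 0.42 (edgeR adjusted p = 0.0224). The null IP, which has no ALG-1 to precipitate, held 98.3 and 49.5 RPM of it, above both H751L libraries. In the remaining alleles it was at 126 and 130 RPM (V254I), 91.7 and 77.8 RPM (G199S) and 191 and 207 RPM (F180del), and H751L was the lowest group. Its hairpin lies in an intron of R08C7.12 on the same strand, chromosome IV, 4450779-4450876, plus strand.

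miR-8210-5p had 2 and 1 reads in the H751L IP (0.145 and 0.0852 RPM) and 55 and 30 reads in the WT IP (4.64 and 2.42 RPM). The WT to H751L ratio was 29.9, with a 95% interval from counting error alone of 9.88 to 148. The log2 change was -4.56 ± 0.89 (edgeR adjusted p = 0.0224), and the null IP had no read. The hairpin lies in an intron of slc-25A29 on the same strand, chromosome V, 14656500-14656636, minus strand. Its arm call is not stable, since miR-8210-5p has fewer reads than miR-8210-3p over the total libraries and more in the WT IP.

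miR-51-3p is the passenger arm of mir-51, a member of the miR-51 family, which acts broadly in embryonic development. It was at 25.6 and 19.1 RPM in the H751L IP and at 1.77 and 0.484 RPM in the WT IP. The log2 change was 4.57 ± 0.72 (edgeR adjusted p = 0.00557), with no overlap. The guide arm of the same hairpin, miR-51-5p, was at 14618 and 17417 RPM in H751L and 18305 and 19576 RPM in WT, a log2 difference of 0.01 ± 0.30. The passenger was also above WT in the IP of G199S (134 and 80.8 RPM), F180del (25.1 in both) and the null (16.9 and 29.4 RPM), but V254I had 1.88 and 1.57 RPM. In RPM the H751L level thus lay within the range of the null IP libraries and close to F180del. The TMM factors were 0.843 and 0.727 in H751L and 1.46 and 1.48 in F180del, so on that scale H751L lay above F180del. The hairpin is on chromosome IV, 11026013-11026112, minus strand, 1481 bp from mir-53.

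miR-85-3p, on the list of miRNAs tied to stress and lifespan, was at 281 and 169 RPM in the H751L IP and 63.5 and 38.9 RPM in the WT IP. The lowest H751L library was above the highest WT library, and the log2 change was 2.37 ± 0.45 (edgeR adjusted p = 0.0198). It was at 1058 and 1324 RPM in G199S, 1443 and 3152 RPM in F180del, 144 and 103 RPM in V254I, and 205 and 232 RPM in the null. All IP groups other than WT were above WT, and H751L lay near the null. The total RNA of the same genotypes overlapped, at 45.6 and 12.7 RPM in H751L and 13.0 and 12.6 RPM in WT. Its hairpin lies in an intron of F49E12.8 on the opposite strand, chromosome II, 8393553-8393658, plus strand.

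**Figure D2:**
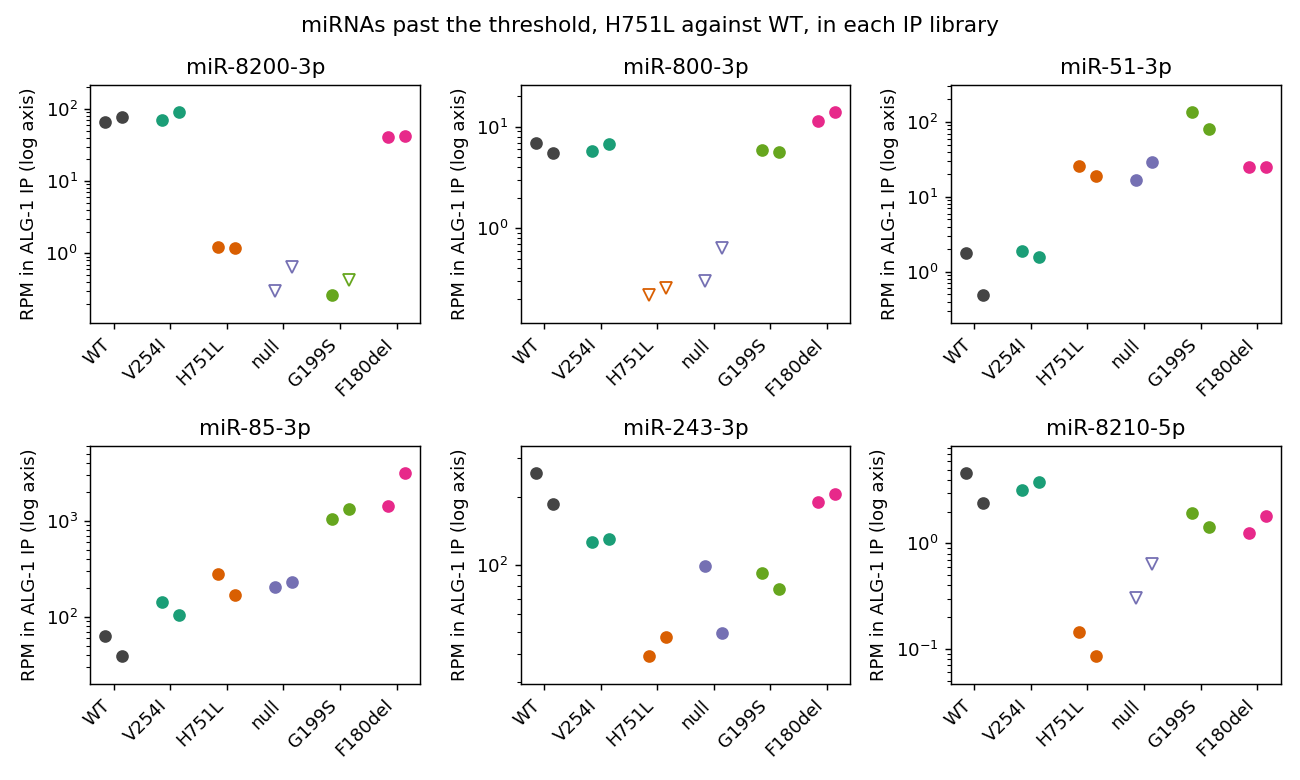
IP level (RPM, y axis on a log scale) of the 6 miRNAs that passed the test, 1 point per library, in WT, H751L and the other genotypes; an open triangle marks a library at 0, drawn at the level of 3 reads. For miR-8200-3p the H751L points (1.23 and 1.19 RPM) lie with G199S and the null, and for miR-800-3p H751L and the null are at 0.

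Each library decided some of these calls. Leaving out 1 of the 4 libraries at a time, the adjusted p reached 0.0842 for miR-51-3p (without WT replicate 2), 0.0789 and 0.0512 for miR-8200-3p (without H751L replicate 1 or 2), and 0.184 for miR-85-3p (without WT replicate 2; also lost without WT replicate 1 or H751L replicate 1). miR-243-3p and miR-8210-5p lost the call without any 1 of the 4, with adjusted p up to 0.185 for both, and miR-800-3p kept it in every such fit (up to 0.0492).

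A further 20 miRNAs had the next lowest p-values and did not pass, with adjusted p between 0.0615 and 0.196. The first of them by p was miR-235-5p, the passenger arm of mir-235, whose guide holds blast cells quiescent in starved larvae. It was at 41.6 and 12 RPM in the H751L IP against 2.11 and 1.77 RPM in the WT IP (log2 difference 3.97 ± 0.95, edgeR adjusted p = 0.0615). Both H751L libraries were above both WT libraries, but they differed from each other more than the WT pair did. Another passenger with the same direction was let-7-3p, at 22.7 and 32.9 RPM against 5.32 and 5.40 RPM (2.63 ± 0.66). So was miR-48-3p, at 256 and 194 RPM against 75.5 and 54.2 RPM (2.03 ± 0.52). Their guides time larval development. In log2 terms let-7-5p differed by 0.13 ± 0.21 and miR-48-5p by 0.09 ± 0.21, neither past the test. In the null IP, let-7-3p was at 72.3 and 23.4 RPM, miR-48-3p at 177 and 46.3 RPM, and miR-235-5p at 0 and 0.643 RPM. The null was thus above WT for let-7-3p, reached both sides of it for miR-48-3p and was below it for miR-235-5p. Without the null IP libraries 22 of the 26 lowest-p miRNAs passed, 12 higher and 10 lower, and these included let-7-3p, miR-48-3p and miR-235-5p. Over all 266 miRNAs tested in that fit, 14 were higher and 21 lower. The 26 were picked by p from the same H751L and WT libraries, so their passing there is no separate support.

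Among guides in that set, miR-71-5p, which is required for normal lifespan, had 66878 and 64915 RPM in H751L and 43825 and 36718 RPM in WT (log2 difference 0.96 ± 0.25, edgeR adjusted p = 0.0623). miR-246-3p, whose level in single worms has been tied to lifespan, had 234 and 224 RPM against 109 and 121 RPM (1.23 ± 0.32, adjusted p = 0.0623). lin-4-5p, which times the first larval transitions, had 2252 and 2032 RPM against 6035 and 3961 RPM (-0.97 ± 0.32, adjusted p = 0.16). miR-58a-5p, the passenger of an abundant bantam family member, had 82.4 and 71.7 RPM against 372 and 231 RPM (-1.71 ± 0.53, adjusted p = 0.125). The null IP held 150167 and 93512 RPM of miR-71-5p and 614 and 554 RPM of miR-246-3p, above H751L for both. It held 1836 and 1669 RPM of lin-4-5p, below H751L, and 2506 and 488 RPM of miR-58a-5p, above WT. H751L thus lay between WT and the null for miR-71-5p, miR-246-3p and lin-4-5p, and below both for miR-58a-5p. miR-4806-5p had no read in H751L and 0.675 and 2.42 RPM in WT, at least 13.4-fold lower. miR-789-3p had 3 reads in H751L and 74 in WT, a ratio of 26 (8.56 to 129, counting error alone).

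Calls were also counted by level, beside the 2.23% of all miRNAs that passed and the 17.1% at an unadjusted p below 0.05. Of the 52 with a mean level of 1000 RPM or more over the 12 IP libraries, 0 passed edgeR's test, 9 had an unadjusted p below 0.05 (6 higher, 3 lower), and the median log2 change was 0.28. DESeq2 called 1 of these 52, miR-58a-5p, lower. The fit without the null IP libraries called 3, miR-52-5p and miR-71-5p higher and miR-58a-5p lower. Over all miRNAs DESeq2 called 7 higher and 14 lower of 269, and the fit without the null 14 and 21 of 266. The mean of miR-58a-5p was 77.0 RPM in H751L and 302 RPM in WT, so other genotypes put it in this class. miR-228-5p, the glial miRNA with the most reads in the WT IP, had 123293 and 116660 RPM in H751L and 135926 and 132381 RPM in WT (0.08 ± 0.33). miR-1-3p, the muscle miRNA, had 50022 and 49145 RPM against 76854 and 88886 RPM (-0.51 ± 0.40, edgeR adjusted p = 0.587). Between 10 and 1000 RPM, 4 of 108 passed (2 higher, 2 lower), with a median of 0.19. Below 10 RPM, 2 of 109 passed, both lower; at an unadjusted p below 0.05 there were 2 higher and 16 lower, and the median was -0.58, or -0.52 with miRNAs at 0 in a group set to their bound.

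Arm by arm, 1 of 104 passenger strands rose and 1 fell, and 1 of 146 guides rose and 3 fell, set against 2.23% of all miRNAs. DESeq2 called 5 passengers higher and 7 lower, and 2 guides higher and 6 lower. Over all 269 miRNAs it called 7 higher and 14 lower. Without the null IP libraries it was 7 and 11 passengers, and 6 and 9 guides. Over all 266 miRNAs tested in that fit it was 14 higher and 21 lower. The passenger that fell with edgeR is miR-8210-5p. Over the WT IP the guide would be the other arm for 28 of the 189 hairpins with both arms named. Arms with equal or no reads were given the 5p arm as guide, so the 28 can include hairpins without reads there. Among the 83 hairpins with enough passenger reads it was 12. The median log2 change was -0.29 for passengers (-0.16 with bounds) and 0.11 for guides.

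Families that share a seed were described by the members tested. No member passed edgeR's test in the let-7 family (6 tested, median log2 change 0.12), the lin-4 family (2, -0.18), the miR-35 family of embryo and germline (8, -0.08), the miR-51 family (6, 0.59), the bantam family (4, 0.30), the miR-63/64 family (5, 0.30), the miR-44 family (4, -0.12) or the miR-2 family (4, 0.70). The same held for a short list that is not a seed family, the intronic miR-62, miR-1019-5p and miR-1020-3p (2 tested, -0.16). That list leaves out other miRNAs with hairpins in introns, among them the called miR-243-3p, miR-8210-5p and miR-85-3p. Over all miRNAs the share was 2.23%, which is less than 1 call in a list of any of these sizes. DESeq2 also called 0 in each of these lists, and the fit without the null IP libraries called 1, miR-52-5p of the miR-51 family, higher. Over all miRNAs DESeq2 called 7 higher and 14 lower of 269, and the fit without the null 14 and 21 of 266. At an unadjusted p below 0.05 there were 2 in the lin-4 family, 2 in the miR-51 family and 0 in the others, beside 17.1% of all miRNAs. Under library totals the let-7 family median was -0.13 and under RLE factors -0.03, a change of sign, while the medians of the other lists kept theirs. The 6 miR-51 family members had log2 differences between 0.01 and 1.05. Their sum was 168975 and 186210 RPM in H751L and 136936 and 148199 RPM in WT, so the groups did not overlap. The lin-4 family pair went apart: lin-4-5p was below WT in both libraries, and miR-237-5p had 2784 and 2777 RPM against 2636 and 1758 RPM (0.60 ± 0.25, edgeR adjusted p = 0.274). In the miR-35 family the largest members were miR-42-3p (2348 and 1583 against 2101 and 1552 RPM) and miR-35-3p (1081 and 1066 against 1864 and 1598 RPM).

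The 9 tissue-restricted miRNAs had a median of 0.56, and 0 passed with edgeR or DESeq2 (1 at an unadjusted p below 0.05). Their summed level was 197346 and 194557 RPM in H751L and 244140 and 242022 RPM in WT, most of it from miR-228-5p and miR-1-3p. miR-60-3p, the intestinal miRNA, had 6760 and 3580 RPM against 2684 and 2420 RPM (1.23 ± 0.39, edgeR adjusted p = 0.136). Of the 8 stress and lifespan miRNAs, 1 rose (miR-85-3p), and the median was 0.89, or 0.69 with bounds. At an unadjusted p below 0.05 there were 3 of the 8. DESeq2 called 2, the other being miR-246-3p, and the fit without the null IP libraries called 3, with miR-71-5p added, all higher. The shares over all miRNAs were 2.23% past edgeR's test and 17.1% unadjusted. DESeq2 called 7 higher and 14 lower of all 269, and the fit without the null IP libraries 14 and 21 of 266. miR-34-5p, which acts in the response to DNA damage, had 109 and 217 RPM against 337 and 270 RPM (-0.61 ± 0.84). The RDE-1 list held only miR-243-3p, which fell.

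**Figure D3:**
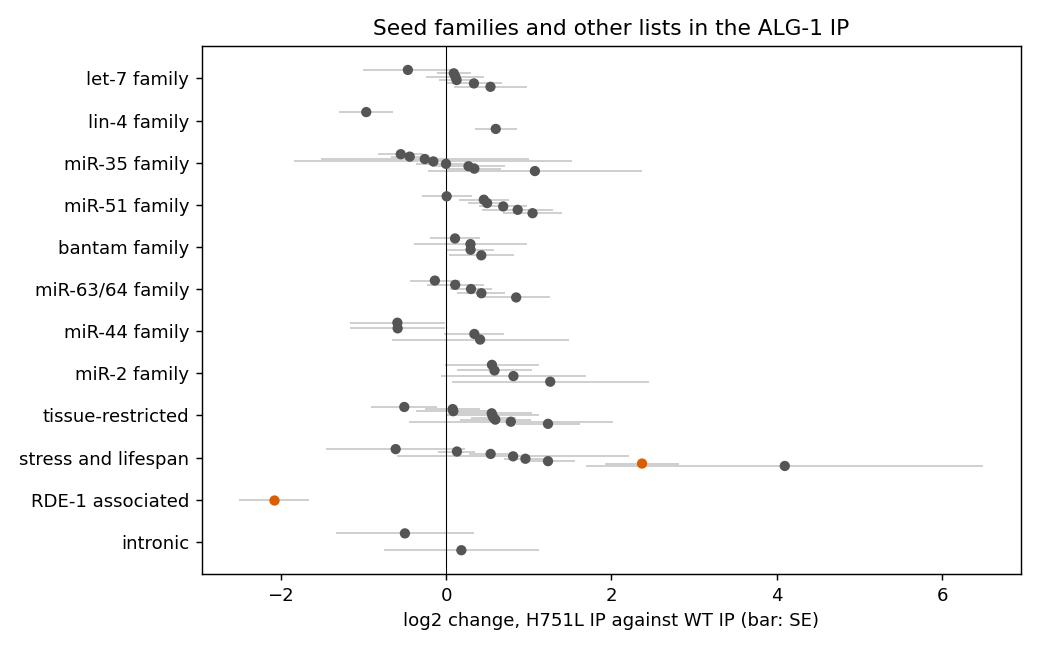
Log2 change in the IP, H751L against WT (x axis), for each tested member of the 12 lists (rows), 1 point per miRNA with its SE as a bar. The orange points, miR-85-3p (2.37) and miR-243-3p (-2.08), are the members that passed the test; the point at 4.10, miR-239b-5p, had no read in WT.

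In total RNA, which came from other libraries of the same genotypes, 6 of 303 miRNAs passed between H751L and WT (1.98%), 5 higher (1.65%) and 1 lower (0.33%), with 30 at an unadjusted p below 0.05 (9.90%). In a fit of H751L and WT alone 0 passed, and leaving out 1 library left 0 or 1. The calls shared with the IP were miR-51-3p and miR-8200-3p, 2 of the 6 in each. miR-51-3p was at 109 and 83.7 RPM in H751L and 12.2 and 14.6 RPM in WT, a log2 change of 3.02 ± 0.68 (edgeR adjusted p = 0.0259). miR-8200-3p was at 3.21 and 6.01 RPM against 61.3 and 52.4 RPM (-3.50 ± 0.68, adjusted p = 0.0259). Neither overlapped between the genotypes in either kind of library. The passengers let-7-3p (3.48 ± 0.72) and miR-235-5p (3.66 ± 0.82) also rose in total RNA, each with an adjusted p of 0.0259.

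Other IP calls had smaller differences in total RNA that did not pass. miR-800-3p was at 1.84 and 6.01 RPM in H751L and 13.8 and 13.1 RPM in WT (-1.69 ± 0.83, edgeR adjusted p = 0.496), so reads of it were present in the H751L lysate. miR-243-3p was at 36.1 and 37.6 RPM against 47.1 and 62.1 RPM (-0.42 ± 0.72, adjusted p = 0.965). miR-85-3p differed by 1.43 ± 1.23 (adjusted p = 0.855), and miR-8210-5p had too few reads in total RNA to be tested. Over the 259 miRNAs tested in both, the log2 changes in IP and in total RNA had the same sign for 174, with Pearson's r = 0.341 and Spearman's rho = 0.401 across miRNAs. The points share their libraries and low counts widen both axes, and miRNAs are not independent replicates. For the 25 of the 26 named miRNAs tested in both, 24 had the same sign; no p is given, since the 26 were picked on the IP values.

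Whether an IP difference exceeded its total RNA difference was tested in 1 fit over all 24 libraries. With edgeR and Benjamini-Hochberg adjustment 0 of 315 miRNAs passed (0%), 27 had an unadjusted p below 0.05 (8.57%), and DESeq2 called 3, all lower. Among these was miR-800-3p, with a log2 difference of differences of -7.34 ± 1.73 and an edgeR adjusted p of 0.155; its fitted size depends on how 0 reads are handled. miR-789-3p was 1 of the other DESeq2 calls, at 37.2 and 155 RPM in the total RNA of H751L and 103 and 55.7 RPM in that of WT, beside the low IP levels given above. The remaining call was miR-240-5p, which had 5.93 and 7.33 RPM in the IP of H751L and 6.16 and 10.5 RPM in that of WT but rose in total RNA (3.68 ± 0.84, edgeR adjusted p = 0.0259).

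**Figure D4:**
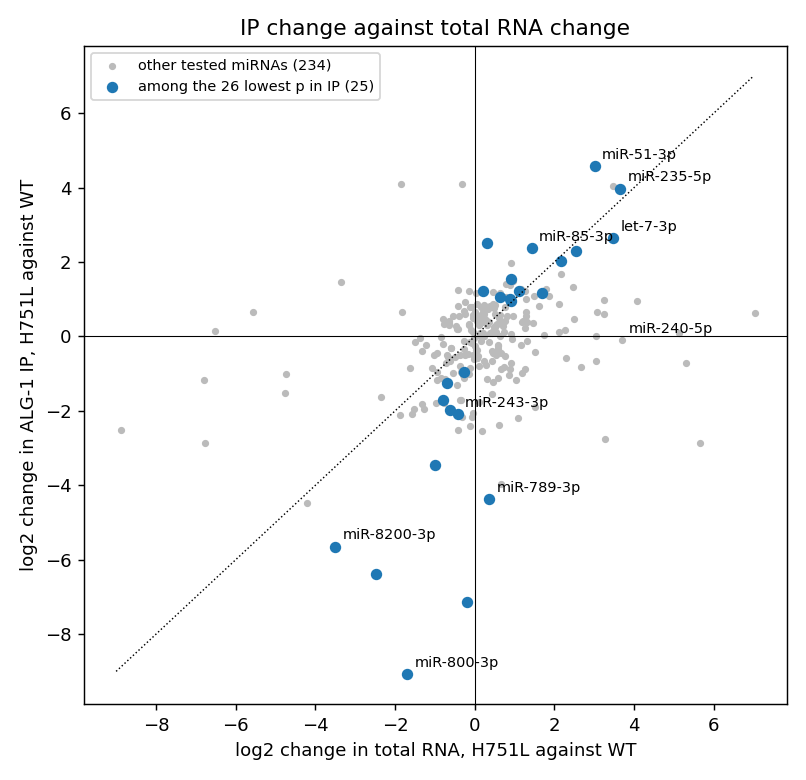
Log2 change in total RNA (x axis) and in the IP (y axis), H751L against WT, for 259 miRNAs tested in both. Blue points are among the 26 with the lowest p in the IP and the dotted line marks equal changes; miR-51-3p (3.02 and 4.57) lies at the upper right and miR-8200-3p (-3.50 and -5.65) at the lower left.

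To compare arms within a hairpin, the passenger was set against its guide in each IP library. Of 189 hairpins with both arms named, 83 had enough passenger reads, and 1 passed limma's test (1.2%), mir-51. Its passenger was 0.175% and 0.11% of the guide in the H751L IP and 0.00968% and 0.00247% in the WT IP. In the null IP it was 0.0292% and 0.0496%, between the H751L and WT values. Both H751L values lay above both WT values, with a log2 change in the ratio of 4.75 ± 0.73 (limma adjusted p = 0.00787). In total RNA the passenger was 0.585% and 0.570% of the guide in H751L and 0.0698% and 0.0858% in WT. Without 1 of 3 libraries (H751L replicate 1 or 2, or WT replicate 2) this call was lost, with adjusted p of 0.136, 0.0549 and 0.0685.

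Ratios of the next hairpins did not pass. For let-7 the passenger was 0.180% and 0.257% of the guide in H751L against 0.0362% and 0.0416% in WT (2.46 ± 0.64, limma adjusted p = 0.123). For mir-70 it was 0.493% and 0.491% against 0.0510% and 0.0641% (3.08 ± 0.89, adjusted p = 0.123). The next hairpins by p lay the other way. For mir-1829a the passenger was 106% and 99.2% of the guide against 315% and 295% (-1.57 ± 0.46, limma adjusted p = 0.123). For mir-8210 it was 200% and 100%, from 3 passenger reads, against 2750% and 600% (-3.10 ± 0.91, adjusted p = 0.123). For mir-71 it was 0.0630% and 0.108% against 0.329% and 0.239% (-1.77 ± 0.55, adjusted p = 0.13). Over the 83 hairpins the median was -0.28, and 6 were higher and 8 lower at an unadjusted p below 0.05. The share of all IP reads on passenger arms was 0.303% and 0.207% in H751L and 0.272% and 0.233% in WT. These groups overlapped, and the difference of 0.00248 percentage points had an exact two-sided permutation p of 1, where 2 libraries against 2 cannot go below 0.33. With guides called over the WT IP the direction turned, at 0.1623% and 0.121% in H751L and 0.198% and 0.1628% in WT. The groups then did not overlap, but only by the narrow gap between 0.1623% and 0.1628%, far less than the difference within either pair.

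**Figure D5:**
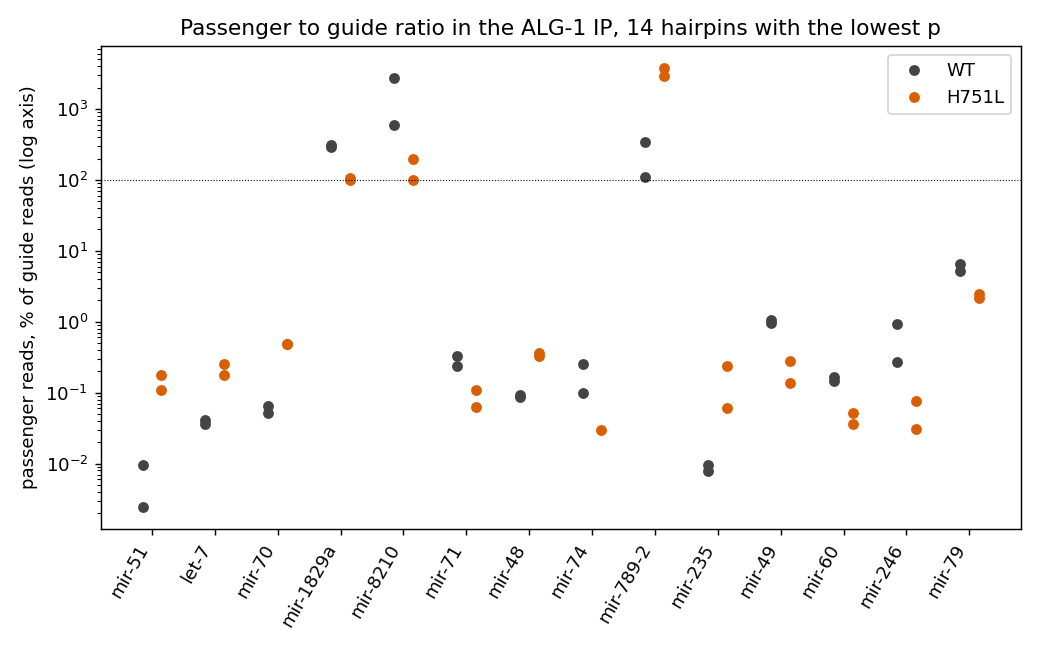
Passenger reads as a percent of guide reads (y axis, log scale) in each IP library of WT and H751L for the 14 hairpins with the lowest p; a ratio of 0 is not drawn, and the dotted line marks equal reads on both arms. For mir-51 it was 0.175% and 0.11% in H751L and below 0.01% in both WT libraries.

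The V254I IP served as a second comparison in which no WT library enters the contrast. V254I was picked from these data, as the allele whose IP was most like that of H751L in number of calls. Between H751L and V254I, 10 of 269 miRNAs passed edgeR's test (3.72%), 6 higher in H751L (2.23%) and 4 lower (1.49%), with 48 at an unadjusted p below 0.05 (17.8%). Library totals gave 1 higher and 4 lower, so the direction split depends on scaling. The lower miRNAs were miR-8200-3p (-5.60), miR-800-3p, miR-8210-5p (-4.39) and miR-1821-3p (-2.19 ± 0.50, adjusted p = 0.0303). The higher ones included miR-51-3p (4.11), miR-48-3p (2.81 ± 0.53, adjusted p = 0.0184), let-7-3p (3.05 ± 0.67, adjusted p = 0.0294) and miR-70-5p (3.84). They also included the guides miR-71-5p (1.26 ± 0.26, adjusted p = 0.0261) and miR-56-3p of the miR-51 family (1.28 ± 0.29, adjusted p = 0.0303), at 69632 and 104995 RPM in H751L and 45725 and 52483 RPM in V254I. Of the 6 calls against WT, miR-85-3p (1.28 ± 0.44, edgeR adjusted p = 0.137) and miR-243-3p (-1.12 ± 0.41, adjusted p = 0.167) did not pass here. This comparison shares its H751L libraries with the one against WT, so the calls that both hold are not independent. Leaving out 1 library at a time left 0 to 6 calls.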

How the data were processed

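Small RNA reads per mature miRNA were analysed for 24 libraries (12 IP, 12 total). Per the labels, libraries were made with a NEXTflex small RNA kit; Bowtie 1.2.2, FastQC 0.11.8, DESeq2 and cutadapt appear per the submitters' processing notes, with no roles. Neither the genome build nor how multi-mapping reads were counted is given, so near-identical members (the miR-35 family, miR-45-3p with miR-44-3p) are uncertain. The deposited counts were used. A deposited RPM table equalled counts divided by library totals within 1 RPM in 100% of cells. A sheet of 48 per-sample columns that match no label was not used. Of 450 rows, 13 repeated a mature name and the row with most reads was kept.

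Counts were tested with edgeR 4.0.16 in R 4.3.3 (filterByExpr, TMM, quasi-likelihood test, Benjamini-Hochberg adjustment over all miRNAs tested, threshold 0.05), with the 12 IP libraries in 1 fit; the SE of a log2 change is the change over the square root of F. Hairpin ratios, log2((passenger + 0.5)/(guide + 0.5)), were tested with limma 3.58.1 where the mean passenger count in the IP was at least 10, the guide being the arm better covered in the total libraries. DESeq2 1.42.0 was an alternative. Steps were run on simulated data with planted changes as a check of the code only. That check does not show that changes of the reported sizes would be found. Floors (3 reads) and 95% intervals cover counting error only, since PCR reads are not independent molecules. Named were all miRNAs past the threshold in the IP, the next by p up to 26, the 5 most abundant, list members by abundance or p, and the top hairpins and other calls. The members and lists were chosen with earlier results of these data known. Hairpin positions come from WBcel235 (Ensembl 115). Sequences were not used here.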

Additional observations from a re-analysis of the deposited data

How the results depend on the processing

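The 6 IP calls were shared by every alternative that kept all 4 libraries. The number called was 13 with no filter, 21 with DESeq2, 26 with only the compared groups fitted, and 35 without the null IP libraries (14 higher, 21 lower; chosen after seeing the data). Leaving out 1 library, which leaves 1 in a group and assumes it varies like the others, gave 2 to 3. For total RNA (6) it was 14 with no filter, 19 with DESeq2, 0 with only the compared groups, 1 with all precursor rows, 13 with a replicate block, 8 with a crossed block (chosen after seeing the data), and 0 to 1 leaving out a library. For the IP against total RNA difference (0), DESeq2 gave 3. For H751L against V254I (10), library totals gave 5, DESeq2 26, only the compared groups 32, no null 39, and leaving out a library 0 to 6. For hairpins (1), a pseudocount of 5 gave 6, only the compared groups 19, no null 20, and leaving out a library 0 to 1. The passenger share difference was -0.039 points with guides called over the WT IP, and -0.046 to 0.051 leaving out a library. Deviations of same-numbered libraries correlated at 0.00767 in H751L and WT IP, -0.391 in total and 0.403 in H751L and V254I IP; the labels name no shared batch, so the numbers were not taken as pairs. The replicate block gave 7 IP calls, 13 against V254I and 1 hairpin. Of the single-miRNA values under alternatives, 408 kept direction and side, 58 newly passed, 94 no longer passed, and 0 reversed.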

Other observations

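By chromosome (267 of 269 tested miRNAs located in WBcel235), the median log2 change in the IP was -0.40 over 44 miRNAs on chromosome IV, 0.37 over 29 on V, 0.20 over 26 on I, -0.09 over 32 on III, -0.01 over 86 on X and -0.0007 over 50 on II. These medians were noticed after the values were seen, neighbouring miRNAs can share a primary transcript, and no test was run. miR-39-5p, which rose in total RNA (5.12 ± 1.16, edgeR adjusted p = 0.0259), had at most 0.338 RPM in any of the 4 IP libraries, near the level of 3 reads. The 168 miRNAs that were not tested include 101 with no read in these 4 libraries, and none of the 168 exceeded 1.10 RPM there (miR-8209-3p). Among the tested miRNAs, 7 had reads in WT and none in H751L, and 4 had reads in H751L and none in WT.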
